A study of Oryza sativa with 16 samples.

Results

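GST1 (LOC4334347, also GSTU1), GSTU6 (LOC4349207) and GSTZ5 (LOC4332455) are glutathione S-transferase genes of rice, found on the array by gene symbol or synonym. These 3 of the 17905 genes with a probe set had 4 of the 57194 rice probe sets, a probe set being the group of short probes that reads 1 transcript. The genes were chosen on their changes under the hormones, the same values given below, so those changes are a description and carry no test. GSTU6 had a second probe set that stayed near the bottom of the scale, between 2.31 and 2.43 on every array, and was not tested, and the other 3 probe sets are described here.

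Seedlings of the indica rice variety IR64, 7 days old and grown hydroponically under 14 h light and 10 h dark, were kept for 3 h in a hormone solution or in water. The hormone groups were the auxin IAA and the cytokinin BAP at 50 µM, and ABA (abscisic acid), ACC (the precursor of ethylene), SA (salicylic acid) and JA (jasmonic acid) at 100 µM, so the hormones were not compared at 1 dose. The water groups were control2 and control1. Each of the 8 groups had 2 arrays, labelled as biological replicates, and the labels do not say which water group belongs to which hormone. The labels name seedlings and no organ, and in such bulk RNA fewer cells of a type and less RNA per cell cannot be told apart.

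Glutathione S-transferases join the tripeptide glutathione to reactive compounds, among them herbicides and products of oxidative damage, and so make them less reactive and easier to store in the vacuole. Plants have many tau class (GSTU) and phi class (GSTF) genes, and many of these are known to respond to SA, auxin and herbicide safeners. In tobacco and Arabidopsis, TGA bZIP factors bind as-1 elements in the promoters of such genes. The zeta class, which the symbol GSTZ5 names, includes an enzyme of tyrosine breakdown. The class of GSTZ5 was not checked here.

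Arrays were alike in their median (2.94 to 3.09 on the log2 scale), and replicate arrays had a Pearson r over rice probe sets of 0.997 to 0.998. Spiked-in poly-A transcripts set 1 set of arrays apart: their 5′ minus 3′ difference lay between -1.56 and -1.22 log2 units in IAA, BAP and control1, and between -1.17 and -0.633 in ABA, ACC, SA, JA and control2. The 3′ minus 5′ difference of rice actin, a sign of RNA quality in the samples themselves, parted the same arrays but in the opposite direction. It was 3.32 to 3.71 in IAA, BAP and control1 and 3.90 to 4.45 in the others. In IAA, BAP and control1 the excess of 3′ over 5′ signal was thus larger for the poly-A transcripts and smaller for actin. The part of RNA quality in the hormone and water differences was not tested. Hybridization controls placed ABA (mean 10.46) nearer control1 (10.32) than control2 (11.84). Each change of the 3 genes is therefore also given against control2 alone and control1 alone. The array medians over 10 probe sets of shoot markers were 13.08 to 14.42, and those over 9 probe sets of root markers were 6.17 to 11.27.

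All 3 genes were higher under SA, IAA, ABA and JA than in water and were not separated from water under BAP or ACC. Under each of SA, IAA, ABA and JA, both hormone arrays lay above all 4 water arrays in 3 of 3 genes. Under BAP and ACC that held for 0 of 3. Among the 24100 tested probe sets, both arrays lay above all water arrays in 15% under IAA, 8.61% under BAP, 27.2% under ABA, 9.81% under ACC, 16% under SA and 12.7% under JA. The whole pattern, above water under IAA, ABA, SA and JA and not under BAP or ACC, was found in 138 tested probe sets (0.573%). The genes were chosen on these contrasts, and nothing is read from the shares.

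GST1 is a tau class gene. Its log2 values were 13.82 and 13.85 under SA, 12.57 and 12.67 under IAA, 12.35 and 12.70 under ABA, and 12.01 and 12.52 under JA. They were 9.70 and 10.35 under BAP and 10.10 and 9.92 under ACC, against 10.05 and 10.05 in control2 and 9.19 and 10.03 in control1. The SA, IAA, ABA and JA arrays were all higher than any water array, and the BAP and ACC arrays overlapped the water arrays. The lowest value of all 16 arrays was the first control1 array.

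The change of GST1 under SA was 4.01 ± 0.25 log2 units (SE, n = 2 hormone and 4 water arrays), a 16.1-fold rise in the mean. It was 3.79 against control2 alone and 4.23 against control1 alone. Each SE comes from limma's fit, which pools the spread of a probe set over all 16 arrays and moderates it across probe sets. For a given gene it is therefore the same under every hormone and does not measure that hormone's own spread. The change of GST1 was 2.79 ± 0.25 under IAA (2.57 against control2 and 3.01 against control1). ABA gave 2.70 ± 0.25 (2.48 and 2.92) and JA gave 2.43 ± 0.25 (2.21 and 2.65). Under these hormones the choice of water arrays changed the size of the difference and not its direction. BAP gave 0.19 ± 0.25 (-0.03 and 0.41) and ACC gave 0.18 ± 0.25 (-0.04 and 0.40), so the sign depended on the control set. Among all tested probe sets, the change of GST1 ranked 40 from the top under SA, 77 under JA and 78 under IAA, but 565 under ABA.

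**Figure D1:**
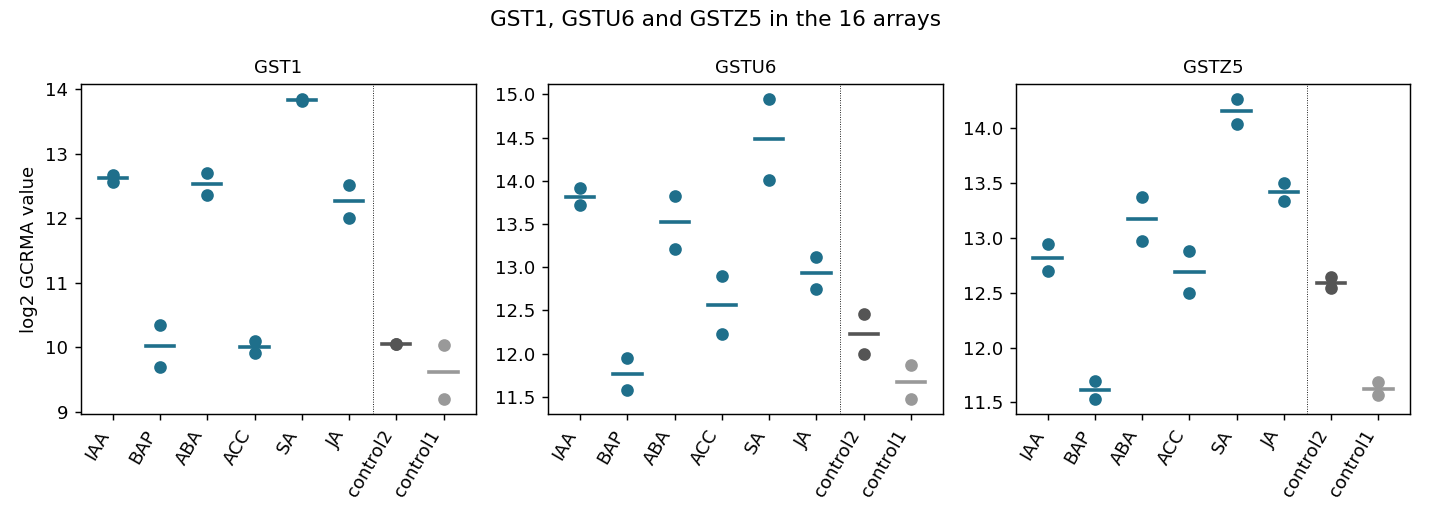
Log2 values of GST1, GSTU6 and GSTZ5 (vertical axis, 1 panel a gene, scales differ) in the 8 groups, with a point for each array and a bar for the mean of the 2 arrays; the dotted line parts hormones from water. In each panel the SA arrays are highest, and in each panel the BAP means lie within 0.50 log2 units of the mean of the 4 water arrays.

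GSTU6 is a second tau class gene by its symbol. Its log2 values were 14.95 and 14.01 under SA, 13.92 and 13.71 under IAA, 13.83 and 13.21 under ABA, and 13.11 and 12.75 under JA. They were 11.58 and 11.95 under BAP and 12.89 and 12.23 under ACC, against 12.46 and 11.99 in control2 and 11.47 and 11.87 in control1. The SA, IAA, ABA and JA arrays all lay above the water arrays, while 1 of the ACC arrays lay above them and the other did not. The 2 SA arrays lay 0.94 apart, which was the widest gap between replicates of the 3 genes under any hormone.

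Under SA, GSTU6 changed by 2.53 ± 0.31 log2 units (5.79-fold; 2.25 against control2 and 2.81 against control1). IAA gave 1.87 ± 0.31 (1.59 and 2.15) and ABA gave 1.57 ± 0.31 (1.29 and 1.85). JA gave 0.98 ± 0.31 (0.70 and 1.26), the smallest of these 4 differences. ACC gave 0.61 ± 0.31 (0.34 and 0.89) and BAP gave -0.18 ± 0.31 (-0.46 and 0.10), so that BAP changed sign with the control set.

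GSTZ5 had log2 values of 14.27 and 14.04 under SA, 13.33 and 13.49 under JA, 13.37 and 12.97 under ABA, and 12.70 and 12.94 under IAA. They were 11.53 and 11.70 under BAP and 12.49 and 12.88 under ACC, against 12.54 and 12.65 in control2 and 11.69 and 11.56 in control1. The lower IAA array stood 0.05 above the highest water array, which was a control2 array. The BAP arrays lay at the level of control1 and below control2.

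The change of GSTZ5 was 2.04 ± 0.28 log2 units under SA (4.12-fold; 1.56 against control2 and 2.53 against control1) and 1.30 ± 0.28 under JA (0.82 and 1.79). It was 1.06 ± 0.28 under ABA (0.58 and 1.55) and 0.71 ± 0.28 under IAA (0.23 and 1.20). Of the 3 genes, GSTZ5 depended most on the water arrays used. ACC gave 0.58 ± 0.28 (0.09 and 1.06), and BAP gave -0.50 ± 0.28 (-0.98 and -0.01).

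**Figure D2:**
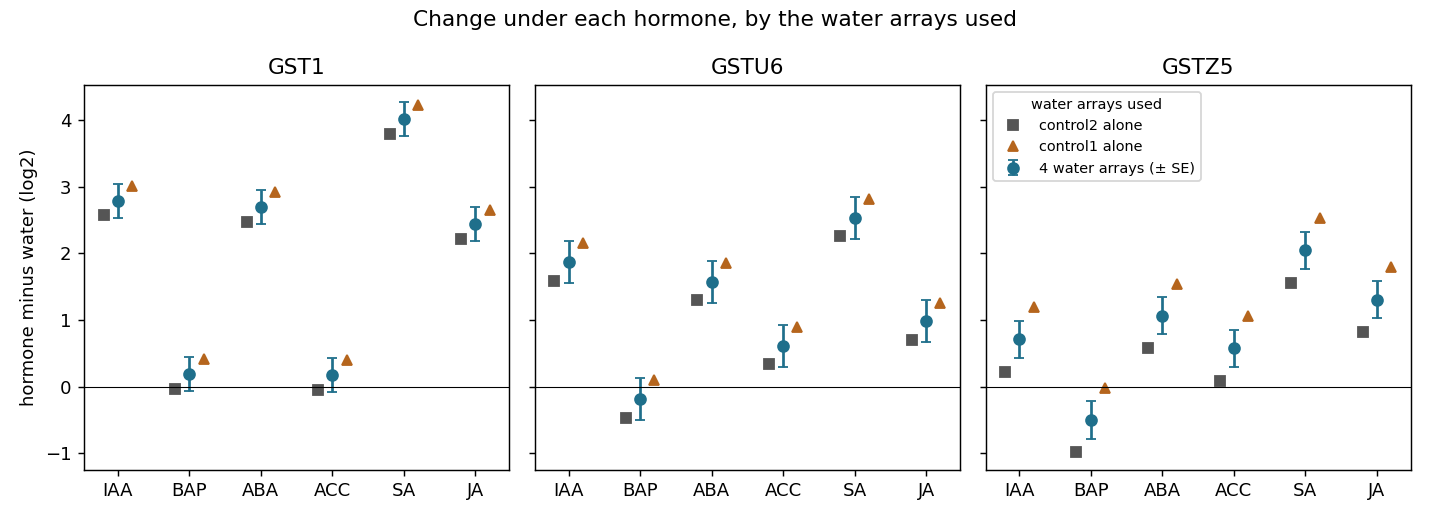
Difference between each hormone and water (vertical axis, log2) for GST1, GSTU6 and GSTZ5, against all 4 water arrays (circles, ± SE), control2 alone (squares) and control1 alone (triangles). The differences under IAA, ABA, SA and JA stay above 0 whichever water arrays are used, and GSTZ5 under IAA comes nearest to 0, with 0.23 against control2.

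The order of the group means differed among the genes below SA. For GST1 it was SA, IAA, ABA, JA, control2, BAP, ACC and control1, with gaps free of overlap below SA (1.22 log2 units) and below JA (2.21). IAA, ABA and JA overlapped in neighbouring pairs, as did control2, BAP, ACC and control1. For GSTU6 the order was SA, IAA, ABA, JA, ACC, control2, BAP and control1, and neighbours did not overlap below SA (0.66), below ABA (0.59) and below control2 (0.46). For GSTZ5 it was SA, JA, ABA, IAA, ACC, control2, control1 and BAP, with such gaps below SA (0.74), ABA (0.35) and control2 (0.97). IAA thus held place 2 for GST1 and GSTU6 and place 4 for GSTZ5, and these orders were not tested.

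The genes were chosen on their changes against the water arrays, and with earlier results of these data known. The difference between the 2 water sets therefore cannot be taken as independent of that choice. Its adjusted p-values for the 3 genes are given as a description. GSTZ5 averaged 12.59 in control2 and 11.62 in control1, a difference of 0.97 ± 0.16 log2 units (1.96-fold), with limma's adjusted p = 0.00213, and both control2 arrays lay above both control1 arrays. GSTU6 differed by 0.56 ± 0.33 (adjusted p = 0.252 in limma) and GST1 by 0.44 ± 0.27 (adjusted p = 0.27 in limma), and neither passed. One of the 3 genes was therefore called, beside 5087 of 24100 tested probe sets (21.1%) in the same comparison, a count that was 2848 or 1747 without the first or the second control1 array and 2039 without the second control2 array. Without the first control1 array the difference of GST1 was 0.02. The poly-A, hybridization and actin values separated the same 2 sets, and their part in the difference of GSTZ5 was not tested.

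Over the 16 arrays the log2 values of GST1 and GSTU6 correlated with r = 0.91, those of GST1 and GSTZ5 with r = 0.85, and those of GSTU6 and GSTZ5 with r = 0.84. The arrays share treatments and water groups, and the genes were chosen for alike changes, so these are descriptions. Of all other tested probe sets, 17 were closer to GST1 than GSTU6 was.

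The named genes most like GST1 over the 16 arrays were MCS (r = 0.923), AOX1 (0.909), BGLU31 (0.896), gcs (0.886) and GR (0.873). Those most like GSTU6 were gcs (0.907), GR (0.894), MCS (0.892), CML31 (0.888) and AOX1 (0.879). For GSTZ5 they were Pir7b (0.896), gcs (0.880), 2-HPCL (0.848), AOX1 (0.843) and AO-2 (0.843). AOX1 is a mitochondrial alternative oxidase, CML31 a calmodulin-like protein and Pir7b an esterase.

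The gene gcs is listed with the synonym GSH1-1, the name of glutamate-cysteine ligase, the first enzyme of glutathione synthesis, and GR is glutathione reductase, which restores oxidised glutathione. Both serve the supply of glutathione, the substrate of the transferases. The log2 values of gcs were 10.84 and 10.55 under SA, 10.42 and 10.19 under ABA, 10.13 and 10.08 under JA and 10.24 and 9.94 under IAA, against 9.48 and 9.60 in control2 and 9.66 and 9.33 in control1. They were 9.88 and 9.86 under ACC and 9.44 and 9.70 under BAP. The SA, ABA, JA, IAA and also the ACC arrays were all above the water arrays, and the BAP arrays overlapped them. The difference from water was 1.18 ± 0.14 under SA, 0.79 ± 0.14 under ABA, 0.58 ± 0.14 under JA and 0.57 ± 0.14 under IAA, with 0.35 ± 0.14 under ACC and 0.05 ± 0.14 under BAP. The likeness chose gcs, so its differences carry no test.

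**Figure D3:**
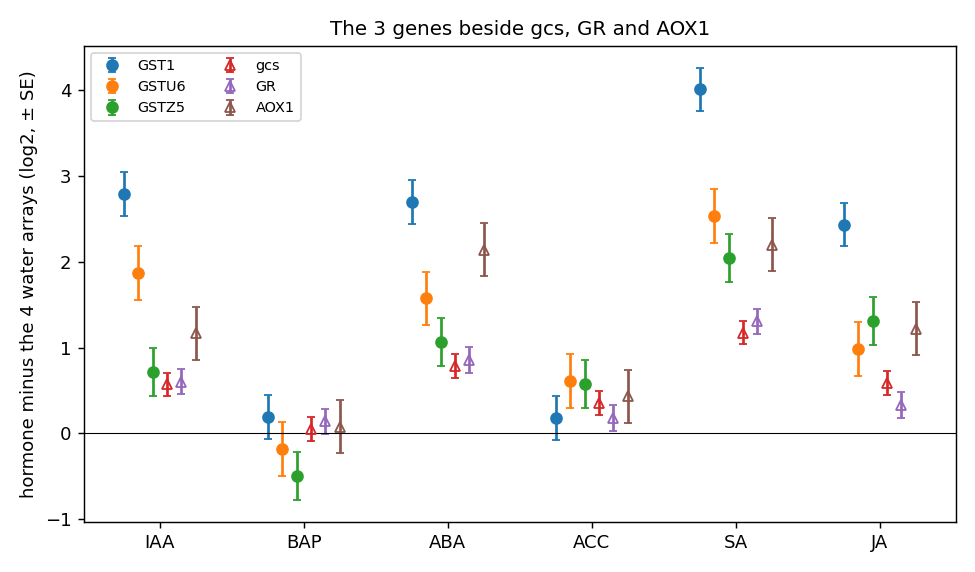
Difference between each hormone and the 4 water arrays (vertical axis, log2, ± SE) for GST1, GSTU6 and GSTZ5 (filled circles) and for gcs, GR and AOX1 (open triangles), genes chosen for their likeness to them. All 6 are highest under SA, and under BAP 5 lie between -0.18 and 0.19 while GSTZ5 is at -0.50, and gcs and GR differ from water by less than GST1 under SA, IAA, ABA and JA.

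The list of glutathione supply and use had 12 tested probe sets. Apart from GR and GLYI-11 they were of APX (ascorbate peroxidase) and MDAR genes, so its counts mostly describe those genes. The gene gcs was not in the list. Limma called 1 of the 12 probe sets under SA, 1 under IAA, 4 under ABA and 0 under BAP, ACC and JA. At an unadjusted p under 0.05, 1 was higher and 4 lower under IAA, 2 higher and 1 lower under SA, and 3 higher and 1 lower under ABA. By the same measure 1 was lower under BAP, 1 higher under ACC and 3 higher under JA. Called shares of all tested probe sets were 9.2% under SA, 4.14% under IAA, 48.1% under ABA, 1.29% under BAP, 0.614% under ACC and 5.96% under JA. GR (RGRC2 in the list) was the probe set called under SA (1.31 ± 0.15, adjusted p = 0.000337 in limma) and 1 of the 4 called under ABA (0.85 ± 0.15, adjusted p = 0.000529). It was also the one called under IAA (0.60 ± 0.15, adjusted p = 0.0435 in limma), a call lost against control1 alone, the water set in the spike-in group of IAA (0.48, adjusted p = 0.158). Its values were 13.39 and 12.98 under SA, against 11.88 and 11.64 in control2 and 11.85 and 12.14 in control1. Likeness to GST1 and GSTU6 over the same arrays also chose GR. Its calls are therefore a description, as are the differences of gcs. Under ABA the ascorbate peroxidase APX6 fell by 0.53 log2 units (adjusted p = 0.000933 in limma), and MDAR5 rose by 0.37 (adjusted p = 0.0368). One of 3 probe sets of APX2 also passed, with 1.44 (adjusted p = 0.0363 in limma), but it gave 0.61 against control2 alone (adjusted p = 0.18) and 2.27 against control1 alone. The water sets differed for it by 1.66 (adjusted p = 0.00743 in limma), which is more than that change. The median of the list was 0.16 under SA, beside -0.01 over all tested probe sets, and 0.05 under ABA, beside -0.07.

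TGA2.2, a bZIP factor of the TGA type, rose under ABA (0.72 ± 0.15, adjusted p = 0.0018 in limma) and SA (0.63 ± 0.15, adjusted p = 0.0223). TGA2.1 rose under ABA (0.50 ± 0.11, adjusted p = 0.00277), and TGA2.3 passed under no hormone. The 3 TGA genes had 0 calls under IAA, BAP, ACC and JA, where TGA2.2 had an unadjusted p under 0.05 under IAA and JA. Of all tested probe sets, 48.1% were called under ABA, 9.2% under SA, 4.14% under IAA and 5.96% under JA. The shares were 1.29% under BAP and 0.614% under ACC.

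A search by symbol or synonym found 3 other glutathione S-transferase genes, with 4 tested probe sets. They were the phi class genes GSTF1 (LOC4325710) and GSTF2 (LOC4326887) and GSTZ3 (LOC4329692), and none has a tau class symbol. The planned match by gene description was not run. Family members listed under other names, or among the 34663 probe sets with no gene given, were not covered. The counts therefore do not speak for the whole family. Limma called 3 of these 4 probe sets under ABA, 1 under JA and 0 under IAA, BAP, ACC and SA. Called shares of all tested probe sets were 48.1% under ABA, 5.96% under JA and 9.2% under SA. They were 4.14% under IAA, 1.29% under BAP and 0.614% under ACC. With 4 probe sets, nothing is read from the counts. At an unadjusted p under 0.05, 1 probe set was lower under IAA, 1 lower under ACC, 1 higher under SA and 0 passed under BAP. Their median change under SA was 0.22, beside -0.01 over all tested probe sets.

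GSTZ3 rose under ABA in both of its probe sets. The first had log2 values of 7.59 and 8.17 under ABA, against 6.40 and 6.46 in control2 and 5.51 and 5.89 in control1. Its change was 1.81 ± 0.27 (adjusted p = 0.000169 in limma), and that of the second, whose probes can also match other transcripts, was 0.93 ± 0.15 (adjusted p = 0.000376). Control2 was above control1 by 0.73 in the first probe set (adjusted p = 0.0452 in limma), and the second did not differ (-0.04, adjusted p = 0.899). Under ABA the first gave 1.45 against control2 alone and 2.17 against control1 alone. The first probe set also rose under JA (1.01 ± 0.27, adjusted p = 0.0472 in limma), a call lost against control2 alone (0.65, adjusted p = 0.129), and under JA no probe set of these genes was called in 14 of 28 alternatives. The second probe set gave 0.52 ± 0.15 (adjusted p = 0.0736). Under SA the 2 gave 0.83 ± 0.27 (adjusted p = 0.0748) and 0.32 ± 0.15 (adjusted p = 0.226).

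GSTF1 had values of 8.66 and 8.34 under ACC, against 9.16 and 9.50 in control2 and 10.16 and 10.31 in control1. Both ACC arrays lay below all water arrays, and the change of -1.28 ± 0.29 did not pass (adjusted p = 0.0754 in limma). Under SA its change was 0.13 ± 0.29 (adjusted p = 0.823) and under JA 0.75 ± 0.29 (adjusted p = 0.155). Against control2 alone, JA gave 1.20 (adjusted p = 0.00451 in limma), a change that passed. The water sets themselves differed for GSTF1, with 9.33 in control2 and 10.23 in control1 (-0.90 ± 0.20, adjusted p = 0.00981 in limma), the opposite direction to GSTZ5. GSTF2 was near the top of the scale on every array and fell by 0.25 under ABA (adjusted p = 0.0134 in limma).

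**Figure D4:**
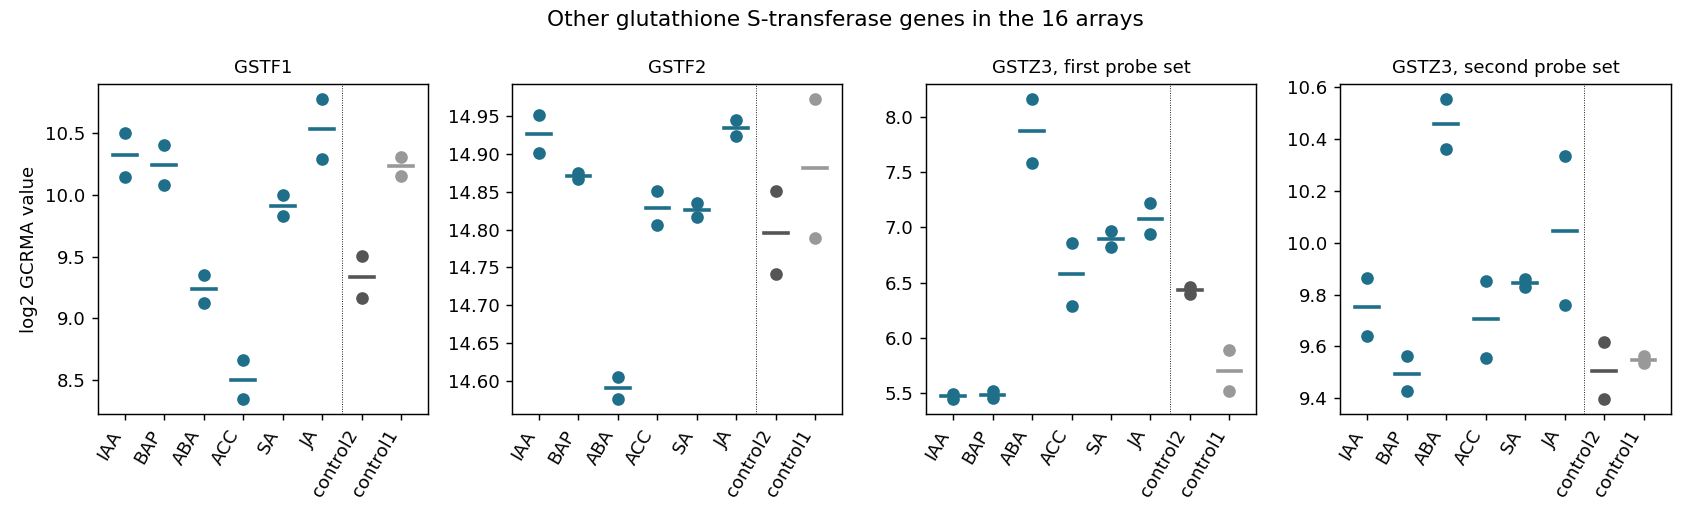
Log2 values of GSTF1, GSTF2 and both probe sets of GSTZ3 (vertical axis, 1 panel a probe set, scales differ) in the 8 groups, with a point for each array and a bar for the mean of the 2 arrays. GSTZ3 is highest under ABA in both panels, GSTF1 is lowest under ACC, and the whole range of GSTF2 is 0.40 log2 units.

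Markers of the root were lower under some hormones, in part others than those under which the 3 genes were high. Across the 7 tested root marker probe sets the mean log2 value was 8.77 and 8.84 in the ABA arrays, against 11.30 and 11.37 in control2 and 11.49 and 11.74 in control1, and limma called 7 of 7 lower. Under SA the mean was 10.06 in one array and 10.86 in the other, and 3 of 7 were lower. Under BAP, where the 3 genes were not separated from water, it was 10.52 and 10.53, and 3 of 7 were lower as well. JA had 1 of 7 lower (10.63 and 10.81), and IAA (11.26 and 11.32) and ACC (11.18 and 11.21) had 0 of 7. Of all tested probe sets, limma called 26.9% lower under ABA, 4.67% under SA, 0.469% under BAP, 2.87% under JA, 1.74% under IAA and 0.32% under ACC. Among the 7 root marker probe sets, control2 was itself below control1 for NRT2.3 (-1.76, adjusted p = 0.00871 in limma) and IRT1 (-2.20, adjusted p = 0.00767). The rest of the 7 did not pass in that comparison. Shoot markers were lower under ABA too, in 7 of 9 probe sets, and in 0 of 9 under SA. The SA array with the lower root markers was also the one with the higher GSTU6 value. The part of these shifts in the values of the 3 genes was not tested.

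In the RefSeq gene order (assembly ASM3414082v1), 6 genes on each side of each of the 3 genes were read as neighbours. The pattern of the 3 genes was both arrays above water under IAA, ABA, SA and JA and not under BAP or ACC. Of all 24100 tested probe sets, 138 (0.573%) had it. Among the 20 tested probe sets of the neighbours, 1 had this pattern. It was LOC4349204, the second gene from GSTU6, which the files do not name and which was chosen after its values were seen. Its log2 values were 10.98 and 8.58 under SA, 8.70 and 8.66 under IAA, 8.36 and 8.33 under JA and 7.53 and 7.26 under ABA, against 6.14 and 6.59 in control2 and 6.63 and 6.96 in control1. The SA arrays lay far apart, and the same SA array was the higher for GSTU6. The difference from water was 3.20 under SA, 1.77 under JA and 0.81 under ABA on the log2 scale, the mean under IAA was 4.29-fold that of water, and the correlation with GSTU6 over the 16 arrays was 0.84. The other 5 measured neighbours of GSTU6 had correlations with it between -0.49 and 0.55.

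**Figure D5:**
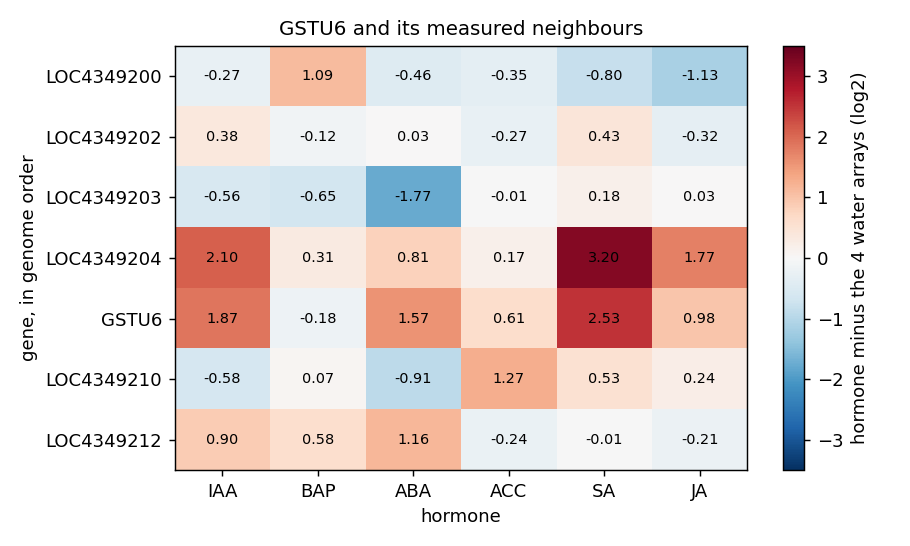
Difference between each hormone and the 4 water arrays (colour and printed number, log2) for GSTU6 and its 6 tested neighbours, in genome order from top to bottom. LOC4349204 and GSTU6 are both higher under IAA, ABA, SA and JA, and the genes around them differ from this pattern.

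The probe set of GST1 belongs to a type (_s_at) whose probes can match several related transcripts, and tau class genes are alike in sequence, so part of its signal may come from relatives. Levels were not compared between genes, because probe sets differ in how strongly they bind.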

How the data were processed

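The authors deposited log2 values, 1 per probe set and array. The submitters' processing notes name GCRMA, a method that subtracts background, brings arrays to 1 scale and combines the probes of a set. Which version and options were used is not given in the sources used here, and the base of the logarithm was inferred from the range of the values. Per the labels' protocols, 5 µg of total RNA was extracted with TRI reagent and labelled as biotinylated cRNA. Of 57381 probe sets, 123 Affymetrix controls and 64 reporters were left out.

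Genes were named from the platform annotation and RefSeq, only for the 22436 probe sets with 1 gene (95 had several and 34663 had none given there). The 24100 probe sets above a log2 value of 5 in at least 2 arrays were fitted in R 4.3.3 with the linear models and moderated tests (intensity trend on) of limma 3.58.1, two-sided, with Benjamini-Hochberg adjustment over all of them and a threshold of 0.05. Hormones were compared with the 4 water arrays (7 groups, 9 residual degrees of freedom) and control2 with control1 (8 groups, 8 residual degrees of freedom). The number of arrays limits the precision. The procedure was also run on simulated data, in which the water sets did not differ and the arrays were independent. That run does not speak to calls where the water sets differed.

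The 3 genes and the gene lists were chosen with earlier results of these data known. Named genes were, for each of the 3, the 5 named genes with the highest Pearson correlation over the 16 arrays, and from the lists those with the smallest adjusted p. Of the list of glutathione supply and use, mostly APX and MDAR genes, 11 of 13 genes had a probe set with 1 gene. So did 3 of 3 TGA genes, 3 of 4 shoot and 7 of 8 root marker genes. MDAR5 and APX2 were named after their values were seen. The planned search of promoters for motifs was not run, as no promoter sequences were at hand. Alternatives were other normalizations, filters and variance settings, array weights, each control set alone, the replicate block and leaving out each array.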

Additional observations from a re-analysis of the deposited data

Results flagged for a closer look

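GST1 in the 4 water arrays was flagged because 1 array stood far from the others. The first control1 array had a log2 value of 9.19, against 10.03 to 10.05 in the other 3 water arrays, and the gap made up 0.973 of the whole range. Chance flags about 1 in 20 groups, and the water arrays hold 2 control sets that differed for many probe sets. Without that array, the differences of GST1 from water were smaller and kept their direction under SA, IAA, ABA and JA, and the cause of the low value was not tested.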

How the results depend on the processing

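In 468 recalculations of a hormone difference of GST1, GSTU6 or GSTZ5, 418 moved by less than 1 SD between replicates, 50 moved by more, and 30 of the 50 came from the water arrays used. Many of the 418 could not move. The filters, the intensity trend, the replicate block and leaving out an array of another hormone do not change such a difference. The 418 is therefore not a measure of stability. Differences under IAA, ABA, SA and JA kept their sign in every recalculation, those of GST1 between 2.18 and 4.32, while those of GST1 and GSTU6 under BAP and of GST1 under ACC crossed 0. For the control2 minus control1 difference, the filters, the intensity trend, the replicate block and leaving out a hormone array could change only the adjusted p. That of GSTZ5 was 0.91 to 1.03 in 23 alternatives, with limma's adjusted p from 0.000643 to 0.0268. That of GST1 was 0.02 to 0.86 when 1 array was left out (adjusted p 0.0737 to 0.974), and that of GSTU6 0.33 to 0.79. The count between the water sets, 5087, was 1747 to 5261 with 1 array left out (2848 without the first and 1747 without the second control1 array, 2039 without the second control2 array). Calls of other glutathione S-transferases under JA were 0 after median centring, with no filter and with only hormone and water arrays, and 2 with array weights, against 1. Array weights and control1 alone each gave 2 under ACC and 1 under SA. Control2 alone gave 2 under IAA and 2 under BAP, and a 2-fold minimum gave 1 under ABA. Leaving out 1 array gave 2 to 4 under ABA, 0 to 1 under ACC, SA and JA, and 0 under IAA and BAP. The causes were not tested. Over 28 pairs of groups the correlation of the replicates' deviations ran from -0.185 to 0.446, with a median of 0.0359 and 10 over 0.1. Some groups thus shared deviations by replicate number, and the main fit took the arrays as unpaired. With the replicate block, 5444 probe sets differed between the water sets, GSTZ5 kept its call (adjusted p = 0.0028 in limma), and the counts under ABA (3) and JA (1) were those without it. Values near the bottom of the scale depend on background correction.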
